A study of Mus musculus with 12 samples.

Results

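The genes described here are those of sterol and fatty acid synthesis, of the SREBP transcription factors that switch them on, and of sterol release and efflux, in macrophages of injured mouse muscle. The module holds 37 genes, listed by symbol for their known role in these pathways, with earlier results of these data known: 7 of the mevalonate steps, 11 of the steps between squalene and cholesterol, 5 SREBP regulators, 4 of fatty acid synthesis, 3 of efflux, 5 of sterol release and transport, 1 of storage and 1 lipoprotein receptor degrader. Each symbol matched 1 of the 55414 gene IDs of the count table, and all 37 genes were among the 14310 that passed the low-count filter. Macrophages were isolated from the calf muscle of the ischemic limb on days 1, 2, 4 and 7 after injury (days post injury, dpi), and RNA-seq was done on 3 libraries a day, 12 in all. All mice were C57BL6J wild type males of 8 to 12 weeks with hindlimb ischemia, and the macrophages had been sorted as CD45+CD11b+F4/80+CD64+ cells. No uninjured muscle was analysed here, so each day is set against an earlier day of the same injury. Neither the labels nor the methods tie a library to 1 mouse or to a pool, and the p-values therefore cover the variation among these 12 libraries, part of which may be technical.

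Cells make cholesterol from acetyl-CoA by way of mevalonate and squalene. The SREBP proteins are held in the endoplasmic reticulum by Insig proteins while sterols are plentiful, and are carried by Scap to be cut and to activate the synthesis genes when sterols run low. Macrophages that engulf dead cells take in much cholesterol, which is freed in the lysosome, stored as esters or sent out by the transporters Abca1 and Abcg1 to lipoproteins. The transporters are induced by LXR receptors, which sense oxysterols.

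Library totals ran between 19528316 and 33599472 counts, of which 1 gene with no symbol in the annotation used took between 14.8% and 55.7%. Its share differed by day: 52.9% to 55.7% at 1 dpi, 40.3% to 46% at 2 dpi, 45% to 49.7% at 4 dpi and 14.8% to 30.1% at 7 dpi. The make-up of the libraries thus changed with the days that are compared. The 7 macrophage markers summed to 5260 to 6380 CPM (the count relative to the TMM-scaled library total) at 1 dpi, 7700 to 8350 at 2 dpi, 6410 to 11100 at 4 dpi and 9520 to 14300 at 7 dpi, with none of them at 0 on any day. Marker sums of other cells moved with time. The 6 fibroblast markers summed to 14.4 to 50.6 CPM at 1 dpi, 27.4 to 43.3 at 2 dpi, 132 to 255 at 4 dpi and 409 to 831 at 7 dpi, and none was at 0. The 9 muscle fibre markers summed to at most 21.9 CPM up to 4 dpi and to 45 to 112 CPM at 7 dpi. The 7 markers of dividing cells summed to 15.3 to 21.7 CPM at 1 dpi, 126 to 157 at 2 dpi, 134 to 280 at 4 dpi and 56.2 to 161 at 7 dpi. Neutrophil markers were highest at 1 dpi, where the 9 summed to 131 to 203 CPM against at most 82.2 CPM on later days. Adipocyte markers, of interest for fatty acid genes, were at or near 0: all 5 were at 0 at 1 and 2 dpi, and their sum reached at most 0.308 CPM in any library. Replicate 2 of 7 dpi had the largest mitochondrial share of all 12 libraries, 18.9% of counts outside the unnamed gene. At 7 against 4 dpi the 3569 genes of longest exonic sequence had a median log2 fold change of 0.23 and the 3573 of shortest one of -0.19.

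Promoter sequences are shown for 5 genes that the results below turn on. Srebf2 is the gene of the main transcription factor of sterol synthesis. Cyp51 is a synthesis gene that fell, and Hmgcs1 is one that did not pass the test. Abca1 is the efflux transporter that rose, and Fasn carries the same LXR-type element as Abca1 and moved the other way. Sequences are from RefSeq on GRCm38.p6, each 300 bases long with 250 before the transcription start and 50 after it, 5′ to 3′ on the gene's strand. Capitals mark the core of the sterol regulatory element that SREBP proteins bind (TCACNCCA), the direct repeat that LXR receptors bind (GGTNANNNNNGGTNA) and the CCAAT box, which the factor NF-Y binds, each searched on both strands.
Srebf2 promoter, chr15:82147019-82147318, plus strand: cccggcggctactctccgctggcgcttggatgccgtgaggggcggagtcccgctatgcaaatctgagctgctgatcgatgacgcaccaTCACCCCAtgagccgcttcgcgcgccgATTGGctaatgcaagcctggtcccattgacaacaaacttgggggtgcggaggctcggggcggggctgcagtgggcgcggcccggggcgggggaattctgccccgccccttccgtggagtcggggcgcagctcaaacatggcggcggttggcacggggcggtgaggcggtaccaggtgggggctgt
Cyp51 promoter, chr5:4104648-4104947, minus strand: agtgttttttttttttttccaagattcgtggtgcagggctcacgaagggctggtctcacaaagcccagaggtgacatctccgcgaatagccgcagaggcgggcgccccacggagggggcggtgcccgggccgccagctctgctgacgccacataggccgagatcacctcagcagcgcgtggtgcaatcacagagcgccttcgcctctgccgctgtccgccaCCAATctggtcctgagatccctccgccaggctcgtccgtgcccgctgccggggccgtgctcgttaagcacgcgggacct
Hmgcs1 promoter, chr13:119690101-119690400, plus strand: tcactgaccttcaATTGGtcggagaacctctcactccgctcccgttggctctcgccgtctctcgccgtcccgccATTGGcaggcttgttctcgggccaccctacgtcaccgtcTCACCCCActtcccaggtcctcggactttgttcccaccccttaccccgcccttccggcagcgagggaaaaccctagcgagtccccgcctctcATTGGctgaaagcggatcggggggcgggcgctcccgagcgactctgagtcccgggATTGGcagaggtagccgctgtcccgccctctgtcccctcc
Fasn promoter, chr11:120824498-120824797, minus strand: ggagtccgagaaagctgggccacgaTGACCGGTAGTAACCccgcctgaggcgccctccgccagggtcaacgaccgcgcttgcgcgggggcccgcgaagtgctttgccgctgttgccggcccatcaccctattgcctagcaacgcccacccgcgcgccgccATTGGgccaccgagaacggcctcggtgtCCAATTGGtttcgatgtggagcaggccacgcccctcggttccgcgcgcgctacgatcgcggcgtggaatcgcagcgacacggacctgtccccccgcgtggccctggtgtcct
Abca1 promoter, chr4:53159846-53160145, minus strand: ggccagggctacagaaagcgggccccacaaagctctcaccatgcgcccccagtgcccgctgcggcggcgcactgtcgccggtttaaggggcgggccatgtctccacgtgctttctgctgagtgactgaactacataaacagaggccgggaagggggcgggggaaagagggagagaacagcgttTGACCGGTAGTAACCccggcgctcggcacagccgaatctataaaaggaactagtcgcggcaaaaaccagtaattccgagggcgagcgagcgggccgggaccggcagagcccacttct

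Of the 37 genes, 29 had an entry in the promoter table, with 39 promoters in all. The sterol element core was found in 4 of the 39 (10.3%), those of Srebf2, Hmgcs1, Msmo1 and Apoe, against 4.36% of the 32851 promoters in the table. In Srebf2 it begins 162 bases and in Hmgcs1 137 bases before the start. The LXR-type repeat was in 3 of the 39 (7.69%), those of Abca1, Fasn and Srebf1, against 0.718% of all promoters. Abca1 and Fasn hold it in the same letters, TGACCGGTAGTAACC, on the strand opposite to the gene, beginning 67 bases before the start of Abca1 and 225 bases before that of Fasn. The CCAAT box was in 25 of the 39 (64.1%) against 37.4% of all promoters, once in Srebf2 and Cyp51, 4 times in Hmgcs1, 3 times in Fasn and not in Abca1. In Fasn a pair of these boxes on opposite strands overlap. A match describes the letters and does not show that a factor binds there.

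At 7 against 1 dpi, 7 of the 11 genes of the squalene to cholesterol steps were called lower and all 3 efflux genes higher. Of all genes tested, 14.0% were called lower and 19.7% higher there. Between neighbouring days, 12 of the 17 calls lay between 2 and 4 dpi. Calls over all genes tested were 729 higher and 568 lower at 2 against 1 dpi. They were 1148 higher and 555 lower at 4 against 2 dpi, and 1064 higher and 744 lower at 7 against 4 dpi. By edgeR's quasi-likelihood test of any difference between days, 27 of the 37 genes changed at an FDR under 0.05, a share to be read against 61.5% of all genes tested. Those that did not pass were Acat2, Hmgcs1, Fdps, Nsdhl, Scap, Insig2, Acaca, Scd1, Scd2 and Stard4. Of the 18 synthesis genes, 11 had their highest mean at 1 dpi and 11 their lowest at 7 dpi, whereas all 3 efflux genes had their lowest mean at 1 dpi. In bulk RNA, fewer cells that express a gene and less of its RNA per cell cannot be told apart.

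**Figure D1:**
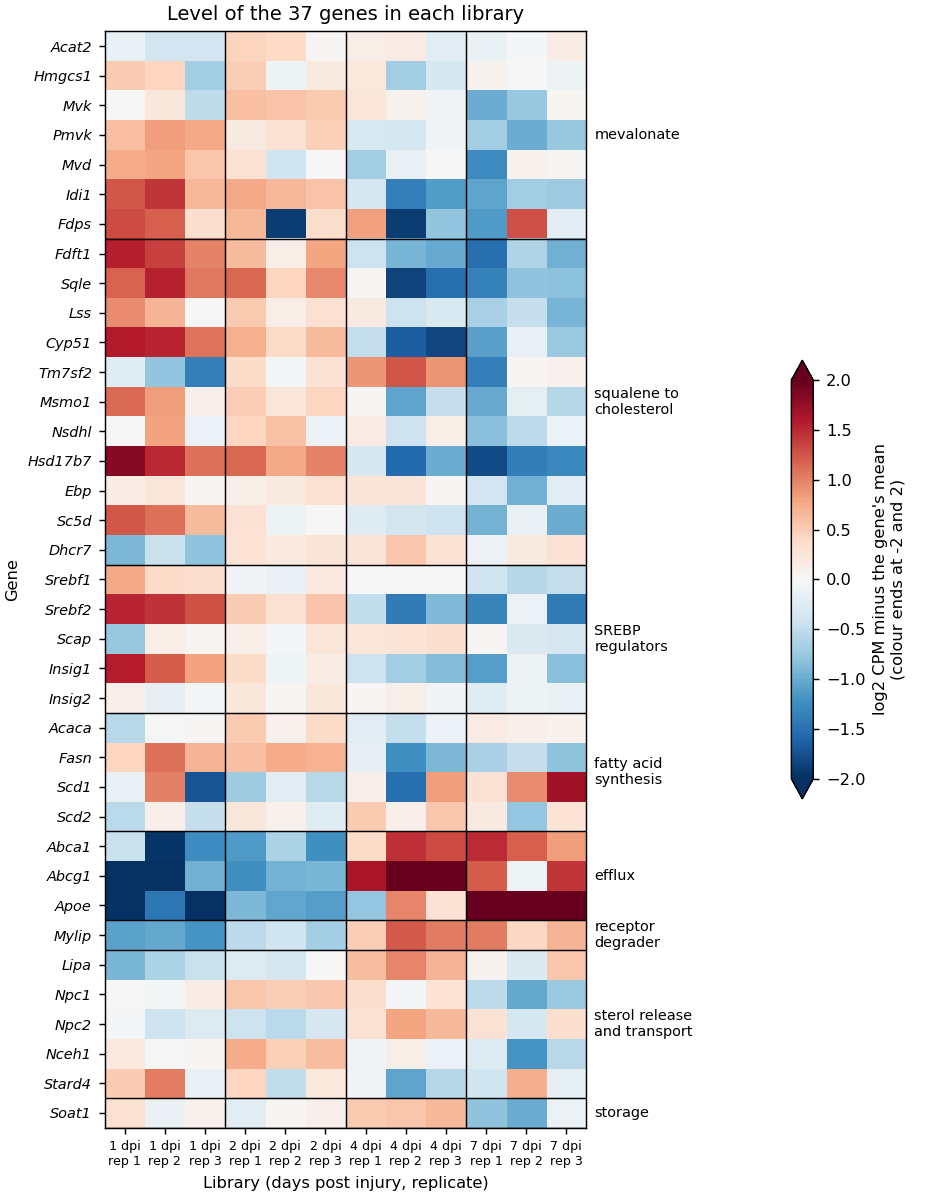
Each cell is the log2 CPM of 1 of the 37 genes in 1 of the 12 libraries, minus the mean of that gene over all libraries, with the genes in rows by their role and the libraries in columns by day and replicate. Red is above and blue below the mean of the gene; late synthesis genes such as Sqle, Cyp51 and Hsd17b7 are red at 1 and 2 dpi and mostly blue at 4 and 7 dpi (Sqle in replicate 1 of 4 dpi is near its mean), and Abca1, Abcg1, Apoe and Mylip mostly run the other way.

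A gene was called at an FDR under 0.05 by edgeR's quasi-likelihood test, adjusted by Benjamini-Hochberg over all genes tested, with a log2 fold change above 1 in size. At 2 against 1 dpi, 1 of the 37 was called lower and 0 higher, where 3.97% of all genes were called lower and 5.09% higher. A total of 16 of the 37 had an unadjusted p under 0.05 in edgeR's test there. The share of all genes with such a p is not given here, so this count is not read as a result about the module. DESeq2 also called 0 higher. The 1 lower call is Insig1; 0 were lower without replicate 1 of 1 dpi or replicate 2 of 2 dpi, 2 (with Sc5d) without replicate 3 of 1 dpi or replicate 1 of 2 dpi, and 1 was higher without replicate 2 (Dhcr7) or replicate 3 (Abcg1) of 1 dpi. At 4 against 2 dpi, 7 were called lower and 5 higher, where the shares of all genes were 3.88% and 8.02%. The 5 higher became 3 without replicate 2 of 2 dpi, replicate 2 of 4 dpi or replicate 3 of 4 dpi. At 7 against 4 dpi, 3 were called lower and 1 higher, against 5.20% and 7.44% of all genes. Without replicate 2 of 7 dpi 1 was lower, and without replicate 1 of 4 dpi 2 were higher. Over the whole span, 7 against 1 dpi, 12 were called lower and 4 higher, against 14.0% and 19.7% of all genes. Neighbouring comparisons share the libraries of the day between them, so a gene that is high or low at 4 dpi enters both. Markers of dividing cells, fibroblasts, muscle fibres and neutrophils moved between the same days, and their part in these results was not tested. Of the 5 neutrophil markers tested, 4 were called lower at 2 against 1 dpi, and 3 lower and 1 higher at 4 against 2 dpi. S100a8 had 38.7, 16.8 and 10.6 CPM at 1 dpi, 2.55, 4.98 and 3.66 CPM at 2 dpi and at most 1.09 CPM in the later libraries, whereas Csf3r, the 1 marker called higher, had 41.2, 65.9 and 58.0 CPM at 4 dpi, against 22.1, 27.4 and 23.3 CPM at 2 dpi.

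**Figure D2:**
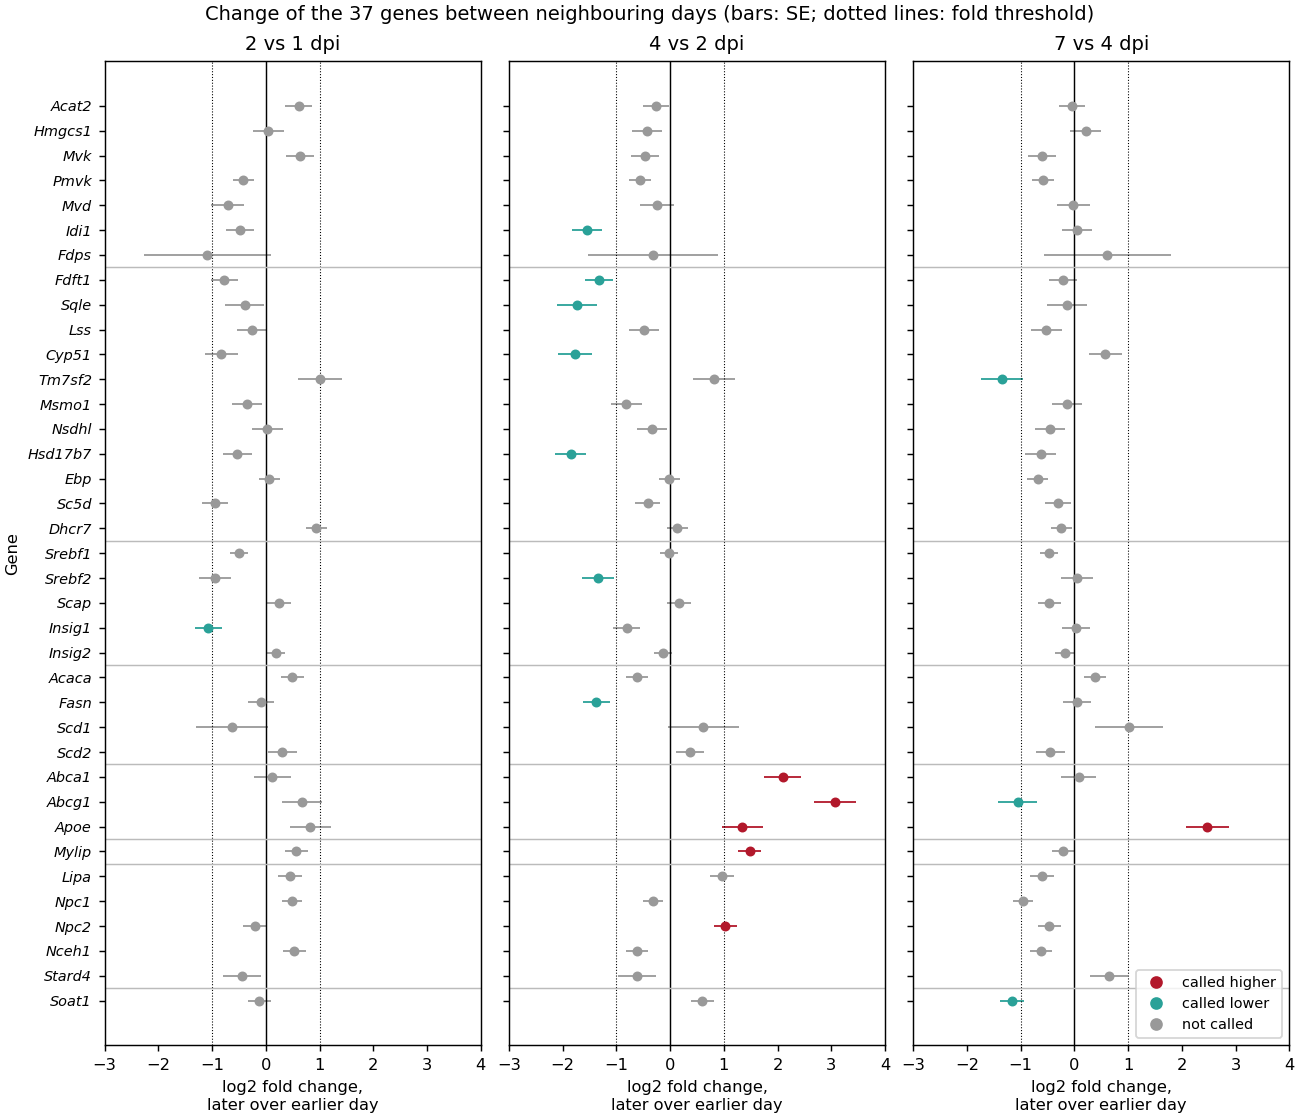
The log2 fold change of each of the 37 genes is plotted for the later over the earlier of 2 neighbouring days, with bars for the standard error and dotted lines at the fold threshold of 1 in either direction. Red points were called higher and green points lower. The middle panel, 4 vs 2 dpi, holds 12 of the 17 calls. Of these, 7 were lower, mostly among the sterol synthesis genes, and 5 higher, among efflux and release genes and Mylip. In that comparison, 3.88% of all genes tested were called lower and 8.02% higher.

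The early steps build mevalonate and isoprene units, and of their 7 genes only Idi1 was called between neighbouring days. Idi1, the isomerase of the isoprene unit, measured 16.2, 18.3 and 10.7 CPM at 1 dpi, 11.5, 10.8 and 10.1 CPM at 2 dpi, 5.32, 2.58 and 3.07 CPM at 4 dpi and 3.21, 4.16 and 4.04 CPM at 7 dpi. Every library of 4 and 7 dpi lay below every library of 1 and 2 dpi. Its log2 fold change was -1.55 ± 0.28 (SE) at 4 against 2 dpi (edgeR adjusted p = 0.00116), and it was -1.99 ± 0.28 at 7 against 1 dpi (edgeR adjusted p = 3.18e-05). Pmvk, the phosphomevalonate kinase, declined in smaller steps, with means of 13.8 ± 1.16, 10.4 ± 1.08, 7.03 ± 0.80 and 4.68 ± 0.51 CPM (SD, n = 3) at 1, 2, 4 and 7 dpi. No neighbouring pair passed for Pmvk, but 7 against 1 dpi did, at -1.56 ± 0.20 (edgeR adjusted p = 1.56e-05). Mvd, which removes the carboxyl group of mevalonate diphosphate, had a log2 fold change of -0.98 ± 0.31 over the same span, just under the fold threshold (edgeR adjusted p = 0.0149). Mvk, the mevalonate kinase, averaged 9.72 ± 2.43, 15.0 ± 0.43, 10.9 ± 1.11 and 7.16 ± 2.87 CPM (SD, n = 3) at 1, 2, 4 and 7 dpi and was called in none of the 4 comparisons made.

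Hmgcs1, the synthase at the head of the pathway and the owner of a sterol element and 4 CCAAT boxes in the promoter shown, did not follow Idi1. It measured 24.0, 22.9 and 10.4 CPM at 1 dpi, 23.9, 15.8 and 19.0 CPM at 2 dpi, 19.6, 10.4 and 13.4 CPM at 4 dpi and 17.8, 16.8 and 15.8 CPM at 7 dpi. Libraries of all 4 days overlap, and at 4 against 2 dpi its log2 fold change of -0.43 ± 0.29 did not pass (edgeR adjusted p = 0.317). Acat2, which joins acetyl-CoA units, averaged between 3.78 and 5.73 CPM on the 4 days. Fdps, the farnesyl diphosphate synthase, had only 0 to 20 counts in a library, so no statement on its direction can be made. Its count was 0 in replicate 2 of 2 dpi and of 4 dpi. If counting error alone allows up to 3 counts there, the levels could reach 0.149 and 0.133 CPM. These bounds are too low if both mates of a pair were counted. Reads of Acat2 and Idi1 can also be shared with near copies: 65.6% of the longest Acat2 transcript and 33.3% of that of Idi1 matched other genes at 95% identity or more. An antisense gene overlaps 13.3% of the longest Hmgcs1 transcript, and the libraries do not keep strand.

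From squalene synthase onward, 4 of 11 genes were called lower at 4 against 2 dpi and 7 of 11 at 7 against 1 dpi, where 3.88% and 14.0% of all genes were. The list medians at 4 against 2 dpi were -0.49 for these steps and -0.43 for the mevalonate steps. Fdft1, the squalene synthase, measured 40.3, 35.5 and 27.4 CPM at 1 dpi, 21.3, 15.0 and 23.8 CPM at 2 dpi, 10.2, 7.15 and 6.76 CPM at 4 dpi and 4.8, 9.0 and 7.04 CPM at 7 dpi. Its 4 dpi libraries all lay below its 2 dpi libraries, and the log2 fold change was -1.32 ± 0.26 (edgeR adjusted p = 0.00216). Of the longest Fdft1 transcript, 54.7% matched other genes, mostly pseudogene sequence, so its level is less certain than its neighbours'. Sqle, the squalene epoxidase, an oxygen-dependent and rate-setting step, measured 41.3, 52.8 and 37.8 CPM at 1 dpi, 40.3, 24.5 and 35.4 CPM at 2 dpi, 18.7, 4.97 and 6.37 CPM at 4 dpi and 7.07, 10.4 and 10.2 CPM at 7 dpi. Replicate 1 of 4 dpi was the highest of the later libraries and still lay below all of 2 dpi. The change of Sqle was -1.73 ± 0.37 at 4 against 2 dpi (edgeR adjusted p = 0.00398).

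Cyp51, the lanosterol demethylase, had 96.5, 92.2 and 68.6 CPM at 1 dpi, 52.5, 42.0 and 49.9 CPM at 2 dpi, 23.1, 10.2 and 9.04 CPM at 4 dpi and 15.1, 29.1 and 19.3 CPM at 7 dpi. The first 3 days do not overlap, whereas 4 and 7 dpi do. Its log2 fold change was -1.76 ± 0.31 at 4 against 2 dpi (edgeR adjusted p = 0.000998) and 0.58 ± 0.31 at 7 against 4 dpi (edgeR adjusted p = 0.175). Without replicate 1 of 4 dpi the last of these became 1.11 with an edgeR adjusted p of 0.0104, so whether Cyp51 was higher again at 7 dpi turned on that library. Hsd17b7, the sterol ketoreductase, showed the largest fall of the 37 genes in both comparisons. It measured 33.2, 26.7 and 20.1 CPM at 1 dpi, 20.8, 15.8 and 18.6 CPM at 2 dpi, 7.44, 3.11 and 4.65 CPM at 4 dpi and 2.65, 3.51 and 3.79 CPM at 7 dpi. The change was -1.85 ± 0.29 at 4 against 2 dpi (edgeR adjusted p = 0.000342) and -3.0 ± 0.30 at 7 against 1 dpi (edgeR adjusted p = 1.21e-06).

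The remaining steps split. Lss, the lanosterol synthase, Msmo1, the methyl sterol oxidase, and Sc5d, the sterol desaturase, were called lower at 7 against 1 dpi and in none of the 3 neighbouring comparisons, at -1.27 ± 0.29, -1.30 ± 0.29 and -1.66 ± 0.24 (edgeR adjusted p = 0.00174, 0.00143 and 4.21e-05). The call of Lss was lost without replicate 1 of 1 dpi, where its change was -1.0 (edgeR adjusted p = 0.0158). Sc5d had most of its fall early, at -0.94 ± 0.24 for 2 against 1 dpi (edgeR adjusted p = 0.015), under the fold threshold.

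Some genes of the same segment ran the other way, peaked at 4 dpi or fell by less than the fold threshold. Dhcr7, which makes the last reduction to cholesterol, had 6.44, 8.87 and 6.92 CPM at 1 dpi, 14.6, 13.8 and 14.4 CPM at 2 dpi, 14.4, 17.8 and 14.8 CPM at 4 dpi and 11.2, 13.7 and 14.9 CPM at 7 dpi. Its 1 dpi libraries lay below all others, and the log2 fold change of 0.94 ± 0.20 at 2 against 1 dpi passed the FDR but not the fold threshold (edgeR adjusted p = 0.00507). Tm7sf2, a sterol reductase, had a peak at 4 dpi, with 2.2, 1.48 and 0.97 CPM at 1 dpi, 3.38, 2.59 and 3.23 CPM at 2 dpi, 4.87, 6.39 and 4.92 CPM at 4 dpi and 0.97, 2.65 and 2.77 CPM at 7 dpi. It was called lower at 7 against 4 dpi (-1.34 ± 0.39, edgeR adjusted p = 0.0208), a call lost without replicate 2 of 4 dpi (-1.22, edgeR adjusted p = 0.0587) or replicate 1 of 7 dpi (-0.99, edgeR adjusted p = 0.065). Ebp, the sterol isomerase, averaged between 25.1 and 26.2 CPM on the first 3 days and 16.2 ± 4.11 CPM (SD, n = 3) at 7 dpi, with a change of -0.68 ± 0.20 at 7 against 4 dpi (edgeR adjusted p = 0.0197). Nsdhl, the sterol dehydrogenase, was called in none of the 4 comparisons. Its -0.765 ± 0.285 at 7 against 1 dpi passed the FDR only (edgeR adjusted p = 0.0356). The same held for Ebp over that span, at -0.633 ± 0.196 (edgeR adjusted p = 0.0137).

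Taken as a list, the 18 synthesis genes had a median log2 fold change of -0.38 at 2 against 1 dpi, -0.45 at 4 against 2 dpi, -0.23 at 7 against 4 dpi and -1.13 at 7 against 1 dpi. The medians of all genes tested were 0.01, 0.04, -0.03 and 0.16 for the same comparisons.

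**Figure D3:**
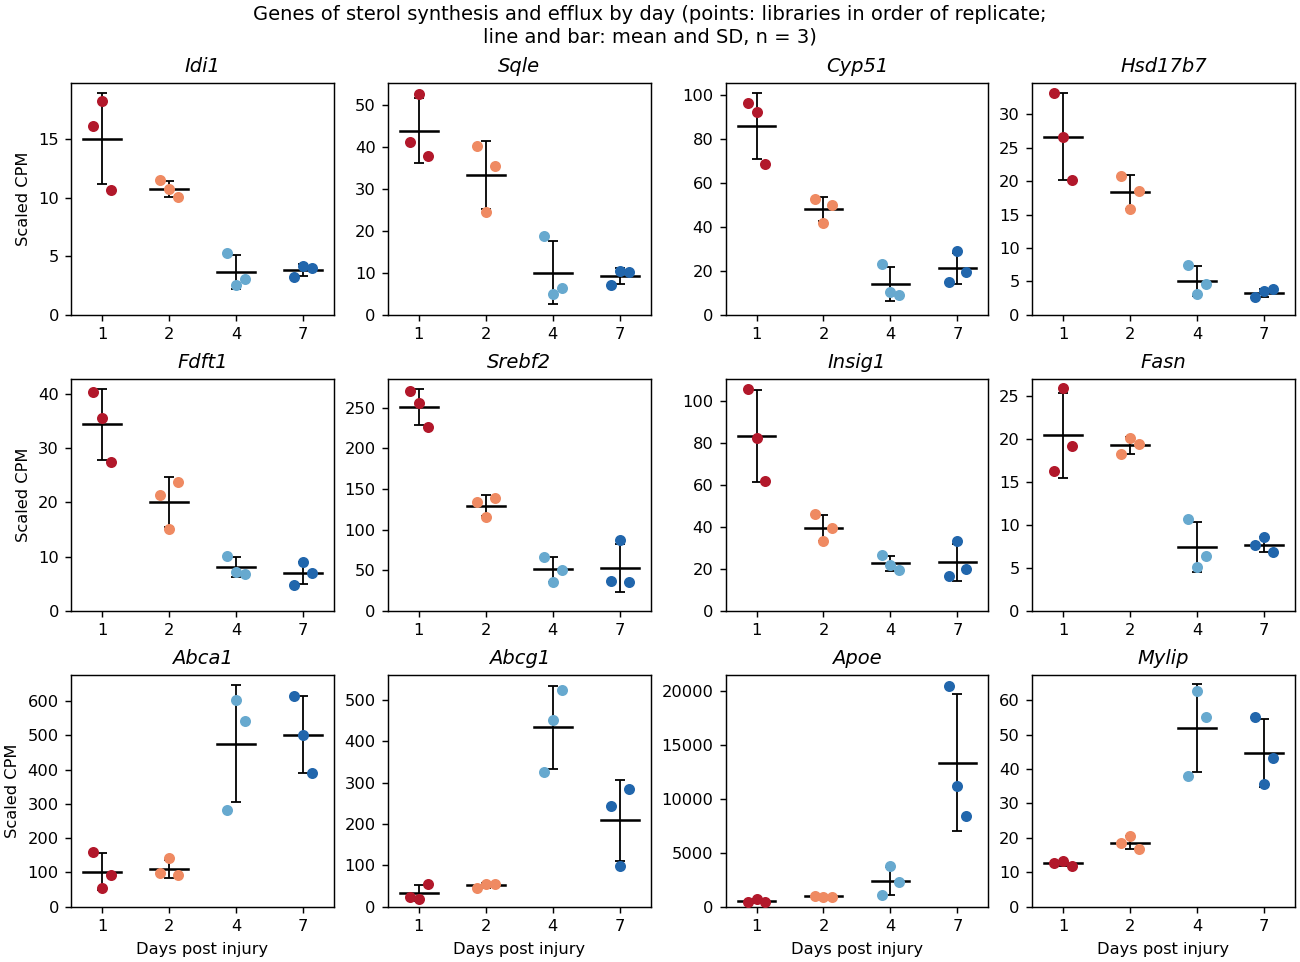
Scaled CPM of 12 of the 37 genes is plotted for each library against days post injury, with points for the 3 libraries of a day, a line for their mean and a bar for the SD. The upper 8 genes, of synthesis and its regulators, are lower at 4 and 7 dpi than at 1 dpi, and the lower 4 are higher. All 12 were called at 7 against 1 dpi, so their shared directions do not describe the whole module. Other synthesis genes, such as Dhcr7 and Hmgcs1, did not follow the upper 8. Apoe stands between 8373 and 20480 CPM at 7 dpi.

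Among the regulators, the sterol-responsive pair, Srebf2 and Insig1, fell the most. Srebf1 fell less, and Scap and Insig2 held closer to their level. Srebf2, whose product drives the sterol synthesis genes and which has a sterol element in its own promoter, measured 270, 255 and 226 CPM at 1 dpi, 134, 115 and 139 CPM at 2 dpi, 66.5, 35.3 and 50.8 CPM at 4 dpi and 37.0, 86.5 and 35.1 CPM at 7 dpi. The days 1, 2 and 4 dpi do not overlap with one another, and replicate 2 of 7 dpi, the library with the largest mitochondrial share, stands above all of 4 dpi. The log2 fold change was -0.95 ± 0.30 at 2 against 1 dpi (edgeR adjusted p = 0.0436, under the fold threshold), -1.35 ± 0.30 at 4 against 2 dpi (edgeR adjusted p = 0.00496) and 0.05 ± 0.30 at 7 against 4 dpi (edgeR adjusted p = 0.913). Insig1, the retention protein that is itself an SREBP target, measured 106, 82.5 and 62.0 CPM at 1 dpi, 46.1, 33.6 and 39.4 CPM at 2 dpi, 26.5, 21.8 and 19.5 CPM at 4 dpi and 16.5, 33.1 and 19.8 CPM at 7 dpi. It was the 1 gene of the module called at 2 against 1 dpi, at -1.07 ± 0.26 (edgeR adjusted p = 0.0106). That call was lost without replicate 1 of 1 dpi (-0.85, edgeR adjusted p = 0.0596) and without replicate 2 of 2 dpi (-0.96, edgeR adjusted p = 0.0591), while the call at 7 against 1 dpi (-1.85 ± 0.26, edgeR adjusted p = 3.01e-05) was kept in all alternatives.

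Srebf1, whose product favours fatty acid genes, has more than 1 promoter, and only 1 of them holds the LXR-type repeat. Counts per gene do not tell these promoters apart. Srebf1 averaged 42.6 ± 7.17, 30.1 ± 3.69, 29.8 ± 0.17 and 21.4 ± 1.24 CPM (SD, n = 3) at 1, 2, 4 and 7 dpi. Its change at 4 against 2 dpi, where Abca1 rose, was -0.02 ± 0.17 (edgeR adjusted p = 0.96), and at 7 against 1 dpi it was -0.99 ± 0.17, just under the fold threshold (edgeR adjusted p = 0.000204). Insig2, the paralog of Insig1 that is not under SREBP control in the same way, averaged between 13.4 and 16.7 CPM on the 4 days. Scap, the escort protein, averaged between 14.5 and 19.98 CPM. Neither Insig2 nor Scap passed the test of any difference between days (edgeR adjusted p = 0.382 and 0.187).

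Fatty acid synthesis did not move as 1 group. Fasn, the fatty acid synthase, measured 16.2, 25.9 and 19.2 CPM at 1 dpi, 18.2, 20.1 and 19.4 CPM at 2 dpi, 10.7, 5.06 and 6.41 CPM at 4 dpi and 7.61, 8.63 and 6.84 CPM at 7 dpi. It was level over the first days and then lower in every library of 4 and 7 dpi, with -1.37 ± 0.26 at 4 against 2 dpi (edgeR adjusted p = 0.00149). Abca1, whose promoter shares 15 bases with that of Fasn, rose over the same days. Whether these bases have a part in either change was not tested. Acaca, the acetyl-CoA carboxylase, averaged 9.76 ± 2.06, 13.8 ± 2.10, 9.0 ± 1.09 and 11.8 ± 0.40 CPM (SD, n = 3), and its -0.62 ± 0.21 at 4 against 2 dpi passed the FDR only (edgeR adjusted p = 0.0475). As 64.3% of the longest Acaca transcript matched a pseudogene, this level is uncertain. Scd2 and Scd1, the desaturases, passed in none of the 4 comparisons; Scd2 averaged between 13.5 and 21.6 CPM, and Scd1 lay between 0.37 and 4.64 CPM over the 12 libraries.

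The 3 efflux genes had the largest rises of the module at 7 against 1 dpi. Abca1, the transporter that loads cholesterol onto apolipoproteins, measured 160, 56.0 and 91.3 CPM at 1 dpi, 99.5, 142 and 93.1 CPM at 2 dpi, 282, 602 and 542 CPM at 4 dpi and 614, 501 and 391 CPM at 7 dpi. The first 2 days overlap, and all 6 later libraries stand above them. Its log2 fold change was 2.10 ± 0.35 at 4 against 2 dpi (edgeR adjusted p = 0.00064), a 4.27-fold rise, and 0.08 ± 0.33 at 7 against 4 dpi (edgeR adjusted p = 0.888). Abcg1, the partner transporter that passes cholesterol to mature lipoproteins, measured 24.1, 19.1 and 54.1 CPM at 1 dpi, 45.0, 54.4 and 55.8 CPM at 2 dpi, 326, 450 and 524 CPM at 4 dpi and 242, 99.0 and 284 CPM at 7 dpi. Its rise of 3.07 ± 0.39 at 4 against 2 dpi was the largest of the 37 genes in that comparison (edgeR adjusted p = 7.22e-05). At 7 dpi all 3 libraries lay below those of 4 dpi, with -1.06 ± 0.37 (edgeR adjusted p = 0.045), but this call was lost in 12 of 20 alternatives and was -0.71 without replicate 2 of 7 dpi (edgeR adjusted p = 0.172).

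Apoe, the secreted apolipoprotein that accepts cholesterol, went on rising. It measured 483, 696 and 423 CPM at 1 dpi, 1023, 931 and 891 CPM at 2 dpi, 1118, 3759 and 2323 CPM at 4 dpi and 20480, 11200 and 8373 CPM at 7 dpi. Each day lies wholly above the day before, although replicate 1 of 4 dpi is close to 2 dpi. The rise was 2.48 ± 0.40 at 7 against 4 dpi (edgeR adjusted p = 0.000869) and 4.64 ± 0.44 at 7 against 1 dpi (edgeR adjusted p = 7.84e-07). The smaller step of 1.34 ± 0.38 at 4 against 2 dpi (edgeR adjusted p = 0.0215) was lost without any 1 of the 2 dpi libraries or without replicate 2 or 3 of 4 dpi, with edgeR adjusted p between 0.058 and 0.158. Per length, Apoe was the most abundant of the 37 at 7 dpi, at 6245 ± 2960 RPKM (CPM per kilobase of exonic length, SD, n = 3), against 77.7 ± 18.8 RPKM for Npc2. Fibroblasts also make Apoe, and their 6 markers rose to 409 to 831 CPM at 7 dpi, against 132 to 255 CPM at 4 dpi; their part in the result was not tested.

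Mylip, an LXR-induced ligase that marks lipoprotein receptors for breakdown, rose with Abca1. Its levels were 12.7, 13.2 and 11.8 CPM at 1 dpi, 18.6, 20.4 and 16.7 CPM at 2 dpi, 37.9, 62.7 and 55.2 CPM at 4 dpi and 55.0, 35.6 and 43.1 CPM at 7 dpi. The 1, 2 and 4 dpi libraries do not overlap with one another, and the change at 4 against 2 dpi was 1.48 ± 0.21 (edgeR adjusted p = 0.000174).

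Of the 5 genes that free and move sterols, 2 had their highest mean at 4 dpi, 2 at 2 dpi and 1 at 1 dpi. Npc2, the lysosomal carrier, measured 381, 291 and 322 CPM at 1 dpi, 288, 266 and 307 CPM at 2 dpi, 475, 666 and 609 CPM at 4 dpi and 474, 305 and 488 CPM at 7 dpi. All libraries of 4 dpi stood above those of 2 dpi, with 1.02 ± 0.21 (edgeR adjusted p = 0.00327), a fold so near the threshold that the call was lost without replicate 2 of 2 dpi, replicate 2 of 4 dpi or replicate 3 of 4 dpi (0.97, 0.92 and 0.99). Apoe was lost without the same 3 libraries too. Lipa, the lysosomal acid lipase, averaged 284 ± 46.1, 390 ± 47.9, 758 ± 103 and 499 ± 148 CPM (SD, n = 3), and its 0.96 ± 0.23 at 4 against 2 dpi lay just under the fold threshold (edgeR adjusted p = 0.00707).

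Npc1, the membrane protein that takes cholesterol over from Npc2, did not rise with it. It averaged 193 ± 13.5, 271 ± 6.0, 217 ± 29.2 and 112 ± 19.5 CPM (SD, n = 3) at 1, 2, 4 and 7 dpi, and its -0.96 ± 0.18 at 7 against 4 dpi passed the FDR only (edgeR adjusted p = 0.00203). Nceh1, a cholesteryl ester hydrolase, had its highest mean at 2 dpi too, 330 ± 29.9 CPM, and its lowest at 7 dpi, 140 ± 42.1 CPM (SD, n = 3). Its -0.62 ± 0.21 at 4 against 2 dpi passed the FDR only (edgeR adjusted p = 0.0461). The same held at 7 against 1 dpi for Npc1, at -0.79 ± 0.18, and Nceh1, at -0.71 ± 0.21 (edgeR adjusted p = 0.00174 and 0.0104). Stard4, a sterol carrier and SREBP target, averaged between 6.85 and 14.3 CPM and passed in no comparison. Soat1, which makes the esters in which cholesterol is stored, measured 392, 291 and 338 CPM at 1 dpi, 272, 325 and 341 CPM at 2 dpi, 455, 469 and 497 CPM at 4 dpi and 183, 159 and 292 CPM at 7 dpi. Its 4 dpi libraries were above all others, and those of 7 dpi were the lowest except for replicate 3, which lay within the range of 1 and 2 dpi. The fall at 7 against 4 dpi was -1.17 ± 0.22 (edgeR adjusted p = 0.00216). Without replicate 2 of 7 dpi it was -0.99, under the fold threshold (edgeR adjusted p = 0.00851).

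Set against each other, synthesis and efflux moved apart. The mean log2 CPM of the 18 synthesis genes minus that of 7 efflux and release genes (Abca1, Abcg1, Apoe, Lipa, Npc1, Npc2 and Nceh1, without the carrier Stard4) was -3.66, -3.42 and -4.23 at 1 dpi, -4.21, -4.63 and -4.39 at 2 dpi, -5.45, -6.62 and -6.33 at 4 dpi and -6.84, -5.59 and -6.13 at 7 dpi. Libraries of 1 and 2 dpi overlap narrowly, those of 4 and 7 dpi overlap, and the early 6 lie above the late 6. The difference between day means was -0.64 at 2 against 1 dpi, -1.72 at 4 against 2 dpi and -0.05 at 7 against 4 dpi. Both sides took part, since the synthesis mean was 2.85 ± 0.31 at 4 dpi against 3.53 ± 0.20 at 2 dpi, and the efflux and release mean was 8.98 ± 0.29 at 4 dpi against 7.94 ± 0.02 at 2 dpi (log2 CPM, SD, n = 3). Of the 7 efflux and release genes, Npc1 and Nceh1 were lower at 4 than at 2 dpi, with log2 fold changes of -0.32 and -0.62. At 7 against 4 dpi the median log2 fold change of the 7 was -0.605, while that of Apoe was 2.48. The 4 fatty acid genes had a mean of 2.70 ± 0.49 at 4 dpi against 3.05 ± 0.06 at 2 dpi, a difference within the spread at 4 dpi. As the members were chosen with results of these libraries known, these levels are given with no test. The values are log2 levels and not per length, so only their changes between days can be read, not which side is higher.

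**Figure D4:**
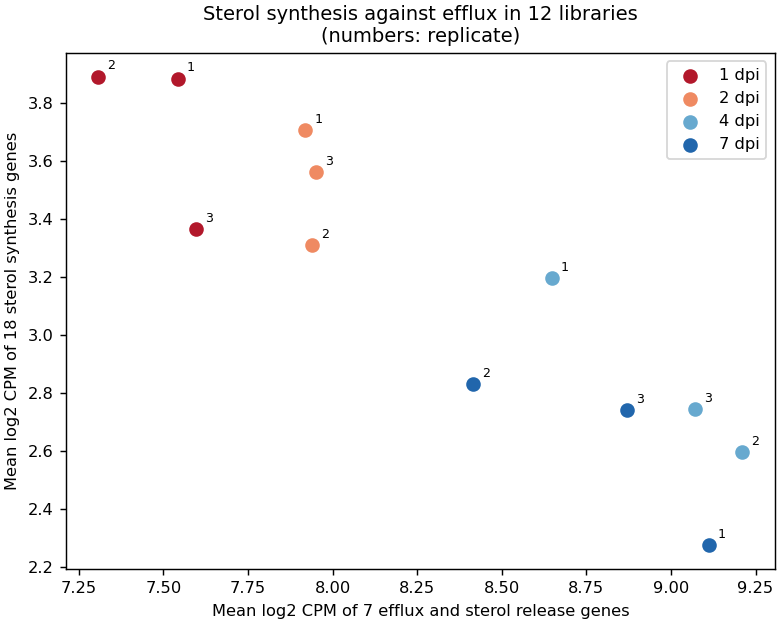
Each point is 1 of the 12 libraries, with the mean log2 CPM of 7 efflux and sterol release genes on the horizontal axis and that of 18 sterol synthesis genes on the vertical axis, coloured by day and numbered by replicate. The 1 and 2 dpi libraries lie at the upper left, with efflux and release at 7.31 to 7.95, and the 4 and 7 dpi libraries at the lower right, at 8.42 to 9.21.

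Other genes of the same pathways were read from 5 lists with 82 genes, of which 76 were tested. Of these 76, 6 were called at 2 against 1 dpi, all higher, 9 higher and 7 lower at 4 against 2 dpi, and 3 higher and 6 lower at 7 against 4 dpi. Of all genes tested, 5.09% were called higher at 2 against 1 dpi, 8.02% higher and 3.88% lower at 4 against 2 dpi, and 7.44% higher and 5.20% lower at 7 against 4 dpi, so that several of these counts lie near the share of all genes. At 7 against 1 dpi, 15 of the 76 were called higher and 14 lower, where 19.7% and 14.0% of all genes were. The 9 higher at 4 against 2 dpi became 5 without replicate 2 of 4 dpi. At 7 against 4 dpi 3 were lower without any 1 library of 1 dpi or replicate 3 of 2 dpi, 10 without replicate 2 of 4 dpi or replicate 3 of 7 dpi, while 1 was higher without replicate 1 or 3 of 4 dpi or replicate 1 of 7 dpi and 5 without replicate 3 of 7 dpi. In the list of related sterol synthesis and SREBP processing, 3 of 19 were called at 4 against 2 dpi, all lower. Por, the electron donor of Cyp51 and Sqle, measured 273, 106 and 139 CPM at 4 dpi, against 510, 514 and 587 CPM at 2 dpi, at -1.64 ± 0.33 (edgeR adjusted p = 0.00233). The falls of Sqle and Cyp51 in this comparison were of similar size. Of 19 related fatty acid genes, 1 was called in the same comparison, Lpin1, a phosphatidate phosphatase, at 2.13 ± 0.37 (edgeR adjusted p = 0.000926).

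Among 16 tested LXR and lipoprotein genes, 6 were called at 4 against 2 dpi, all higher, where 8.02% of all genes were, with a list median of 0.52 against 0.04 for all genes. At 7 against 1 dpi, 5 of the 16 were called higher and 2 lower, where 19.7% and 14.0% of all genes were. Pltp, a phospholipid transfer protein and LXR target, measured 424, 1417 and 987 CPM at 4 dpi, against 85.9, 92.4 and 70.6 CPM at 2 dpi, at 3.51 ± 0.35 (edgeR adjusted p = 9.07e-06). Nr1h3, the gene of the macrophage LXR receptor, named here after its values were seen, measured 55.4, 37.3 and 41.2 CPM at 4 dpi, against 16.4, 14.4 and 21.9 CPM at 2 dpi, at 1.34 ± 0.42 (edgeR adjusted p = 0.0326). These rose in the same comparison as Abca1, Abcg1 and Mylip. Of 9 tested oxysterol genes, Cyp27a1, which makes an oxysterol that LXR receptors bind, measured 9.65, 31.8 and 23.3 CPM at 4 dpi, against 1.65, 2.89 and 2.55 CPM at 2 dpi, at 3.19 ± 0.38 (edgeR adjusted p = 4.2e-05). Ch25h, which makes an oxysterol that holds back SREBP processing, was highest at 2 dpi, with 17.6, 23.7 and 13.6 CPM, against 2.75, 2.22 and 1.48 CPM at 1 dpi, and it measured 6.84, 0.27 and 1.32 CPM at 4 dpi. Its changes were 3.11 ± 0.66 at 2 against 1 dpi (edgeR adjusted p = 0.00523) and -2.66 ± 0.63 at 4 against 2 dpi (edgeR adjusted p = 0.0077).

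Of 13 lipid uptake genes, 1 was called higher and 3 lower at 4 against 2 dpi, and 4 were called at 7 against 4 dpi, all lower. The shares of all genes were 8.02% higher and 3.88% lower at 4 against 2 dpi and 5.20% lower at 7 against 4 dpi. Olr1, a scavenger receptor for oxidised lipoprotein, measured 4.17, 4.22 and 3.78 CPM at 4 dpi, against 37.0, 32.6 and 34.1 CPM at 2 dpi, at -3.09 ± 0.27 (edgeR adjusted p = 3.84e-06). Scarb1, a receptor for high-density lipoprotein, measured 117, 165 and 160 CPM at 4 dpi, against 56.3, 61.3 and 62.7 CPM at 2 dpi, at 1.29 ± 0.19 (edgeR adjusted p = 0.000227). Scarb1 fell back at 7 dpi (-1.01 ± 0.19, edgeR adjusted p = 0.00195), as did Soat1. Cd36, a fatty acid and scavenger receptor, measured 148, 209 and 266 CPM at 7 dpi, against 903, 856 and 764 CPM at 4 dpi, at -2.02 ± 0.27 (edgeR adjusted p = 0.000379).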

How the data were processed

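Macrophage RNA from 12 libraries (3 at each of 1, 2, 4 and 7 dpi) was sequenced after a Smart-seq2/3 protocol with an oligo-dT primer. Whether reads were counted by strand is not given in the sources used here. The submitters' processing notes name Trim Galore 0.6.6, HISAT2 2.2.1, Subread 2.0.1 and GRCm39, and the deposited values are the raw counts per gene made by the authors. Symbols and exonic lengths came from GENCODE M21 (GRCm38), joined by Ensembl gene ID, and 3333 of 55414 IDs had none. Of counts between 1 and 20, a median of 83.1% were even; whether both mates of a pair were counted is not given in the sources used here, so small counts may overstate fragments.

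The tests were run with edgeR 4.0.16 under R 4.3.3: filterByExpr (14310 genes), TMM scaling, 1 coefficient per day in all 12 libraries, and the quasi-likelihood test with Benjamini-Hochberg adjustment. Calls needed an FDR under 0.05 and an absolute log2 fold change above 1, and log2 CPM had a prior count of 2. The members and lists were chosen with earlier results of these data known. Any of the 37 genes could be named, and of each related list the 3 called genes of smallest p per comparison, a selection of which is reported. Near copies were sought among transcripts with blastn 2.17.0 (at least 150 bases at 95% identity). Alternatives were RLE factors, DESeq2 1.42.0, limma-voom (limma 3.58.1), no filter, no fold threshold, a replicate block, removal of the gene of highest share, fits on the 6 libraries compared and each of the 12 libraries left out.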

Additional observations from a re-analysis of the deposited data

How the results depend on the processing

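Of 33 calls among the 37 genes in the 4 comparisons, 26 were kept in all 20 alternatives and none changed sign. The other 7 were Insig1 (2 against 1 dpi), Apoe and Npc2 (4 against 2 dpi), Tm7sf2, Abcg1 and Soat1 (7 against 4 dpi) and Lss (7 against 1 dpi). Whether equal replicate numbers pair the samples was not tested. Correlations of deviations ran between -0.133 and 0.127 for equal numbers and between -0.221 and 0.265 for others. With the replicate as a block, 33 of the 33 calls were kept and 1 was gained.

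Without a fold threshold, 1 member was higher and 3 lower at 2 against 1 dpi, and 6 were higher and 10 lower at 4 against 2 dpi. There were 7 lower at 7 against 4 dpi and 19 lower at 7 against 1 dpi. Related genes then numbered 11 higher and 3 lower at 2 against 1 dpi, 12 lower at 4 against 2 dpi, 6 higher and 21 lower at 7 against 4 dpi and 24 lower at 7 against 1 dpi. The shares of all genes without a fold threshold are not given here. These counts therefore show only how the calls depend on the threshold, and are not results about the members or related genes. At 7 against 4 dpi, 3 related genes in place of 6 were lower with RLE factors, with DESeq2 and without the gene of highest share. With only the 6 libraries compared, 1 member and 2 related genes were lower there and 1 related gene higher. The cause of these differences was not tested.

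With each library left out in turn, members called ran between 0 and 1 higher and 0 and 2 lower at 2 against 1 dpi, 3 and 6 higher and 7 and 8 lower at 4 against 2 dpi, 1 and 2 higher and 1 and 3 lower at 7 against 4 dpi, and 4 and 6 higher and 11 and 13 lower at 7 against 1 dpi. Related genes ran between 5 and 9 higher and 0 and 1 lower at 2 against 1 dpi, 5 and 9 higher and 6 and 9 lower at 4 against 2 dpi, and 1 and 5 higher and 3 and 10 lower at 7 against 4 dpi. At 7 against 1 dpi they ran between 12 and 16 higher and 13 and 16 lower. The synthesis minus efflux difference ran between -2.06 and -1.48 at 4 against 2 dpi and between -0.35 and 0.29 at 7 against 4 dpi, where it changed sign without replicate 1 of 4 dpi (0.29) or replicate 1 of 7 dpi (0.27). With efflux as Abca1, Abcg1 and Apoe alone it was -2.77 at 4 against 2 dpi, -0.73 at 7 against 4 dpi and -4.32 at 7 against 1 dpi. With Stard4 added to efflux and release, an alternative chosen after seeing the data, it was -0.532 at 2 against 1 dpi, -1.513 at 4 against 2 dpi, -0.153 at 7 against 4 dpi and -2.198 at 7 against 1 dpi. With fatty acid genes added to synthesis it was 0.042 at 7 against 4 dpi. The scalings moved the median of all genes by at most 0.09 on the log2 scale. Fdps and Scd1, with the lowest counts, are limited by depth.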
